A study of Mus musculus with 8 samples.

Results

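The mechanistic target of rapamycin (mTOR) pathway was examined through 35 genes that encode the mTOR complexes, their regulators, the amino acid sensing machinery upstream and the main effectors downstream. The members were taken by gene symbol, matched to probes through the probes' accessions, and all 35 were among the 21308 genes tested. By their role towards mTOR complex 1 signalling they were divided into 20 activators or effectors, 13 inhibitors and 2 targets of the catabolic arm that the complex holds inactive (Ulk1 and Tfeb). Total RNA was taken from small intestine, and the mice were C57BL/6J Min/+, a strain with a truncated Apc allele that forms intestinal adenomas. All groups carried that allele, and none was wild type. The 8 single-colour arrays comprised 2 arrays each of Western female, Western male, Control female and Control male mice, named below by group and number. The Western-type diet had a fat share that was 66.4% milk fat and 33.6% plant oil (rapeseed with sunflower), and the control groups received the semisynthetic AIN-93G diet. Feeding is labelled as 18 months, each array held RNA of 1 to 3 mice, and the labels do not say that arrays of a group came from different mice, so p-values measure the spread between these arrays.

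mTOR is a kinase that works in a pair of complexes. Complex 1, with Raptor (Rptor), promotes protein synthesis and growth and restrains autophagy when amino acids are plentiful, and complex 2, with Rictor, acts on Akt. Amino acids are read at the lysosome, where the Rag GTPases on their Ragulator anchor recruit complex 1 to its activator Rheb, while GATOR1, the sestrins and the tuberous sclerosis complex (Tsc1 and Tsc2) oppose this. In the intestinal epithelium the pathway is known for coupling nutrients to crypt growth, and in the Apc mutant intestine it is known as active in adenomas. Much of this control acts on proteins, which these mRNA measurements do not show.

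Values are log2 of the processed signal relative to the 75th percentile of the same array, and a probe's value was set only against the same probe on other arrays. On Control female 2, 75.6% of probes were well above background, and on the other arrays the share lay between 55.1% and 61.9%. Of the members, 34 were well above background on all 8 arrays and Tsc2 on 7. The 7 enterocyte markers averaged 6.71 to 7.12 on the Western arrays and 6.83 to 7.15 on the control arrays, so the markers of the labelled tissue were present on every array. The smooth muscle markers (7 of 7 tested) averaged -2.48 to -0.88 on the Western arrays and -2.29 to 2.03 on the control arrays, with the top value on Control male 1. Fibroblast markers (6 of 6 tested) averaged -3.16 to -1.71 on the Western arrays and -3.25 to 0.38 on the control arrays, again highest on Control male 1. Fat cell markers (4 of 6 tested) averaged -2.69 to 2.75 on the Western arrays and -2.37 to -0.98 on the control arrays, with the top value on Western female 2. The part of these tissues in the members' values on those arrays was not tested. All 4 red blood cell markers tested had an unadjusted p under 0.05 by limma with higher signal on the Western diet (0.648% of all genes). They averaged 2.01 to 3.78 on Western and 0.106 to 2.69 on control arrays. In females 4 were so (median difference 2.40, 0.596% of all genes) and in males 0 (0.60, 0.582%). The low control arrays were Control female 1 (0.106) and Control female 2 (0.261), against 1.98 on Control male 1 and 2.69 on Control male 2. The library labelled Control female 1 carried Y-linked transcripts at male levels (Eif2s3y 1.90 there, against 1.75 to 2.45 on male arrays and at most -5.58 on the other female arrays), and its deposited file bears a name for the Western diet. Its labelled group was used, and values without it and without Control female 2 stand beside many of the members below. In bulk tissue, fewer cells of a type and less RNA per cell cannot be told apart.

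The palindrome CACGTG is the core of the E-box bound by basic helix-loop-helix factors, among them Tfeb, a member itself and the master regulator of lysosomal genes. It was present in the 250 bases before the start of 6 of 34 promoters of the 30 members with a RefSeq promoter (17.6%), against 1978 of 32851 promoters of all genes (6.02%). The motif is its own reverse complement, so both strands were searched at once. The matches lie at Rheb, the GTPase that switches complex 1 on (chr5:24842440-24842469, minus strand), the Rag GTPase Rragc (chr4:123917309-123917338), the Ragulator subunits Lamtor1 (chr7:101905757-101905786) and Lamtor4 (chr5:138255350-138255379 and chr5:138255366-138255395), the cap-binding factor Eif4e (chr3:138527028-138527057 and chr3:138527192-138527221) and the scaffold Eif4g1 (chr16:20672661-20672690). All but Rheb are on the plus strand, and coordinates are those of RefSeq, assembly GRCm38.p6. The sequences are printed 5′ to 3′ with 12 bases on either side to show the motif's setting at each member, with the motif in capitals.
Rheb: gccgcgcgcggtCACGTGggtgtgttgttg
Rragc: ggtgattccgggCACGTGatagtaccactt
Lamtor1: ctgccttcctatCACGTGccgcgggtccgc
Lamtor4, distal: gcagaaagttaaCACGTGaacagcttttca
Lamtor4, proximal: tgaacagcttttCACGTGtaaaccaaacca
Eif4e, distal: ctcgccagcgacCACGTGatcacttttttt
Eif4e, proximal: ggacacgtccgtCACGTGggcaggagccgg
Eif4g1: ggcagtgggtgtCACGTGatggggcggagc
The motif began 54 bases before the start of Eif4g1, 68 before Lamtor1, 96 before Rheb and 112 before Rragc. A second motif, TGATGNAAN, the amino acid response element through which Atf4 acts, was searched on both strands and matched 1 of 34 member promoters (2.94%), against 3.44% of all promoters. A match describes letters in this window and not binding. Deptor, Rps6kb2, Eif4ebp1, Lamtor3 and Slc7a5 are not in the promoter table. The 6 members with the E-box had diet differences between -0.11 (Eif4g1) and 0.20 (Rheb) in log2, given with the other members below.

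The design text first contrasts Western-diet and control mice. None of the 35 members passed an adjusted p of 0.05 by limma, and 0 of all genes did (0% called). At an unadjusted p under 0.05, 0 members were higher (0.648% of all genes) and 0 were lower (3.62% of all genes). The members' log2 differences ran from -0.64 (Tsc2) to 0.22 (Rptor) with a median of -0.053, and the median of all genes was -0.058. Among all genes 8620 lay above 0 and 12688 below. Activators had a median of 0.0057, with 11 members above 0 and 9 below, and inhibitors one of -0.11, with 3 above and 10 below. Without Control female 1 these medians were 0.010 and -0.15, and without Control female 2 they were -0.022 and -0.036. Relative to the median of all genes, activators were at 0.063 and inhibitors at -0.048, and 19 of 35 members were higher. Over the 20 settings fitted, counting each left-out array, the activators' distance ran from 0.0031 to 0.18, the inhibitors' from -0.11 to 0.070, and the count of members above the median of all genes from 13 (quantile normalization) to 29 (no filter on dim probes). Inhibitors turned positive with slide as a block (0.023), with normexp (0.0066) and with no filter on dim probes (0.070). They were also positive with scan day as a block (0.0016) and without Control male 2 (0.016). Scaling each array to its own median adds 1 amount to every gene of an array, put the median of all genes at 0.31 and leaves distances from it as they were by construction.

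With the 75th percentile scaling each difference could be bounded. For 32 of 35 members the 95% interval of the diet difference lay within 2-fold in either direction, and for 21 it lay within 1.5-fold, against 64.7% and 31.3% of all genes. All 20 activators were within 2-fold, as were 10 of 13 inhibitors. The 3 exceptions were Tsc2, Ddit4 and Eif4ebp2, each an inhibitor with a wide spread between arrays. The shares of all genes include dim genes. Among probes well above background on all arrays, 32 of 34 members were within 2-fold and 23 within 1.5-fold, against 82.2% and 45.2% of genes. The bounds hold for the brightest probe of each gene, and some dimmer probes of Slc38a9 and Depdc5 had intervals beyond 2-fold. These bounds also depend on the scaling. Under median scaling 1 of 35 members (11.5% of all genes) and 0 of the 20 activators were within 2-fold, and under quantile normalization 29 members and 17 activators were. Under the other settings 30 to 33 members were within 2-fold, and 7 (slide as a block) to 30 (normexp) were within 1.5-fold.

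**Figure D1:**
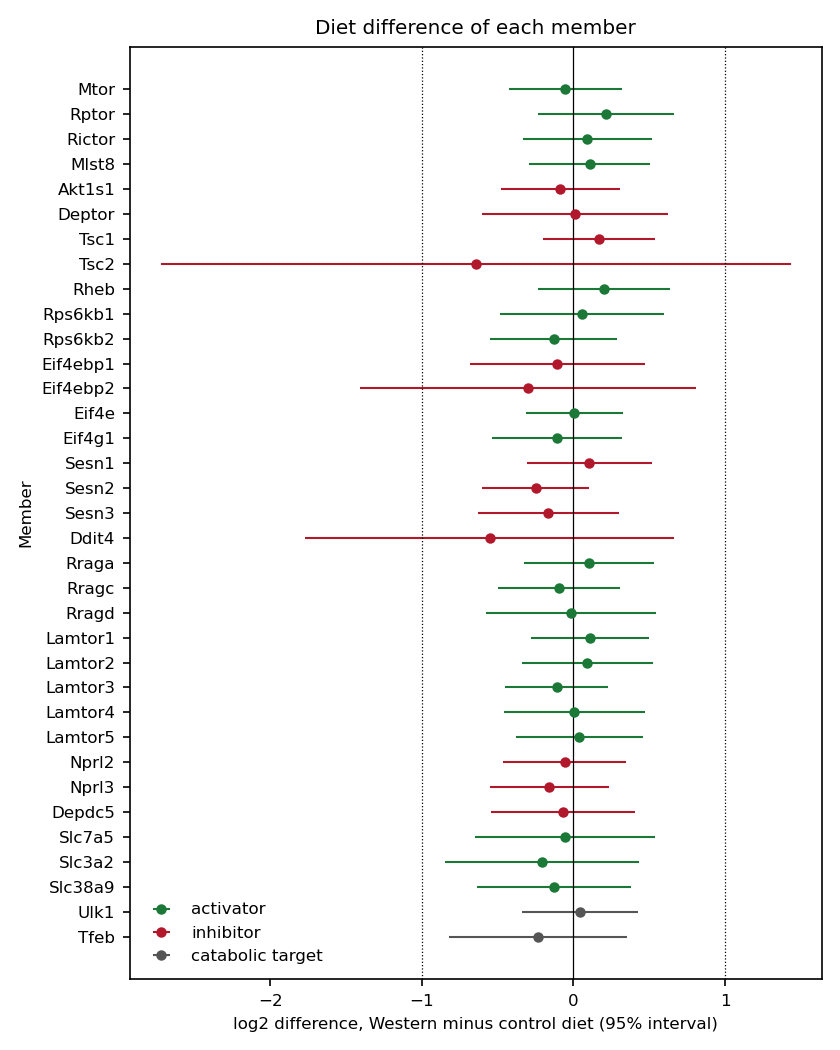
Diet difference of the 35 members, in log2 (Western minus control diet, horizontal axis), as points with 95% intervals from limma over 8 arrays. Members run down the page by role, coloured as activators, inhibitors or catabolic targets, and dotted lines mark 2-fold. Every interval includes 0, and those of Tsc2, Ddit4 and Eif4ebp2 pass the 2-fold lines.

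The 4 core subunits had diet differences between -0.053 (Mtor) and 0.22 (Rptor). Mtor, the kinase itself, measured -1.65, -1.41, -1.29 and -1.49 on Western female 1, Western female 2, Western male 1 and Western male 2, against -1.45, -1.62, -1.17 and -1.40 on Control female 1, Control female 2, Control male 1 and Control male 2. The diets overlapped throughout, and the highest and lowest arrays differed by 1.40-fold. Mtor averaged -1.46 ± 0.15 on the Western and -1.41 ± 0.19 on the control diet (SD, n = 4 each), a difference of -0.053 ± 0.15 (SE, interval -0.43 to 0.32). The exact two-sided permutation test over the arrays gave p = 0.686, where the smallest of 70 assignments would be 0.0286. Without Control female 1 the difference was -0.010, and without Control female 2 it was -0.096.

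Rptor, the substrate-binding subunit that defines complex 1, measured 1.22, 0.95, 0.68 and 1.27 on the Western arrays in the same order, against 0.99, 0.92, 0.65 and 0.70 on the control arrays. Western female 1 and Western male 2 were the highest, and the other Western arrays lay among the control arrays. Its difference of 0.22 ± 0.18 was the largest positive one among members (adjusted p = 0.995 by limma). Rictor, the defining subunit of complex 2, measured -3.05, -2.74, -2.69 and -2.68 on the Western arrays, against -2.73, -3.16, -2.95 and -2.68 on the control arrays. The difference of 0.091 ± 0.17 lay within the spread of either diet. Without Control female 2, the lowest array, it was -0.015, and without Control female 1 it was 0.20. Mlst8, the subunit common to both complexes, differed by 0.11 ± 0.16. The inhibitory subunits Akt1s1 and Deptor differed by -0.086 ± 0.16 and 0.0081 ± 0.25.

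Rheb and the tuberous sclerosis complex that inactivates it form the next step. Rheb measured 1.10, 0.79, 1.03 and 1.17 on the Western arrays, against 1.00, 0.68, 1.00 and 0.61 on the control arrays. Western female 2 lay among the control arrays and the other Western arrays above them, and the difference was 0.20 ± 0.18 (interval -0.23 to 0.63). A further Rheb probe gave 0.20 ± 0.15. Without Control female 2 the value for the first probe was 0.12. Tsc1, the scaffold of the inhibitory complex, measured 0.60, 0.44, 0.87 and 0.62 on the Western arrays, against 0.67, 0.41, 0.43 and 0.33 on the control arrays. Western male 1 was highest, Control female 1 came next, and the difference was 0.17 ± 0.15. Control female 1 was the only control array above any Western array, so without it the diets did not overlap (difference 0.23, where 2.18% of all genes were higher without overlap), and without Control female 2 the difference was 0.11. Tsc2, the subunit that acts on Rheb, measured -4.95, -4.17, -4.94 and -4.60 on the Western arrays, against -5.11, -1.13, -4.64 and -5.21 on the control arrays. Control female 2 stood far above the other 7 arrays, which ranged from -5.21 to -4.17, and the difference of -0.64 ± 0.85 rests on that array, with 0.35 when it is left out. Without Control female 1 the difference was -1.64, in a fit that leaves Control female 2 alone in its group and so cannot measure that group's spread. Control female 2 is also the array with the most probes above background, and the part of that in the Tsc2 value was not tested.

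Among the effectors of translation, the cap-binding protein Eif4e was the steadiest member, between 1.33 and 1.54 on the 8 arrays (SD 0.0728), with a difference of 0.0050 ± 0.13. The S6 kinases Rps6kb1 and Rps6kb2, which complex 1 activates, differed by 0.059 ± 0.22 and -0.13 ± 0.17, and the scaffold Eif4g1 by -0.11 ± 0.18. The other 2 probes of Rps6kb1 had the opposite sign, at -0.038 ± 0.22 and -0.14 ± 0.22, and the probe used in the fit was at 0.18 without Control female 1 and -0.063 without Control female 2. Eif4ebp1 and Eif4ebp2 bind Eif4e and block it until complex 1 phosphorylates them. Eif4ebp1 differed by -0.11 ± 0.24. Eif4ebp2 measured 0.31, 0.09, 1.60 and 0.36 on the Western arrays, against 1.09, 0.20, 1.88 and 0.40 on the control arrays. The 3 high arrays, Western male 1, Control female 1 and Control male 1, belonged to both diets and were all on slide 1, which also held Western female 1, a low array. The difference was -0.30 ± 0.45, with -0.078 without Control female 1 and -0.52 without Control female 2.

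The stress-induced inhibitors are the sestrins and Ddit4. Sesn2, a sestrin that senses leucine and acts through GATOR2 on GATOR1, measured -0.70, -0.74, -0.64 and -0.72 on the Western arrays, against -0.48, -0.14, -0.61 and -0.56 on the control arrays. Every Western array lay below every control array, but Western male 1 and Control male 1 were close together, and Control female 2 stood above the rest. It was the sole member of 35 whose diets did not overlap with lower values on the Western diet (2.29% of all genes), and 0 members had higher values without overlap (0.864% of all genes). Sesn2 averaged -0.70 ± 0.042 on the Western and -0.45 ± 0.21 on the control diet (SD, n = 4 each). The difference was -0.25 ± 0.14 (SE), 1.19-fold lower, with an interval of -0.60 to 0.10, an unadjusted p of 0.136 and an adjusted p of 0.995 by limma. It was -0.33 without Control female 1 and -0.16 without Control female 2, -0.12 within slide 1 and -0.60 within slide 3. Relative to the median of all genes it was -0.19, and after median scaling its own value turned to 0.12.

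Ddit4 (Redd1), an inhibitor induced by hypoxia and glucocorticoids that releases Tsc2, measured 1.77, 2.19, 3.30 and 1.35 on the Western arrays, against 2.53, 2.10, 2.51 and 3.70 on the control arrays. Western male 1 and Control male 2 were the highest arrays, while the other array of each of these groups was far lower. The difference of -0.55 ± 0.50 was within this spread, and it was 0.021 within slide 1. Across all arrays Ddit4 varied 5.10-fold. Sesn1 and Sesn3, the other sestrins, differed by 0.10 ± 0.17 and -0.16 ± 0.19. Sesn3 measured -1.95, -2.26, -1.80 and -2.14 on the Western arrays, against -2.04, -1.75, -2.08 and -1.62 on the control arrays, with overlap between the diets. Its difference was -0.24 without Control female 1 and -0.092 without Control female 2.

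**Figure D2:**
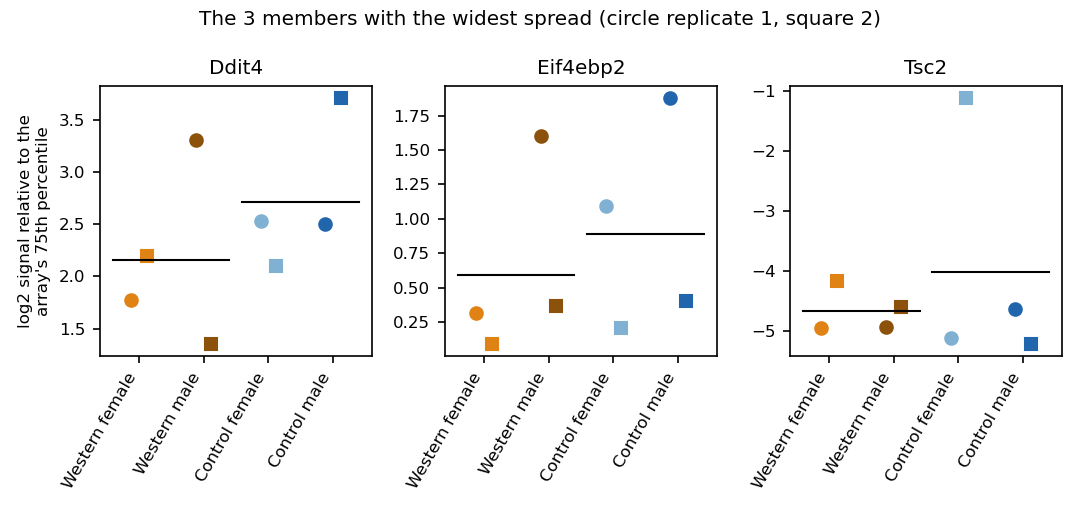
Log2 signal relative to the 75th percentile of each array for Ddit4, Eif4ebp2 and Tsc2, the 3 members with the widest spread, on the 2 arrays of each group. Lines are diet means over 4 arrays. Ddit4 was high on Western male 1 and Control male 2, Eif4ebp2 on 3 arrays with replicate number 1, and Tsc2 on Control female 2.

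The Rag GTPases and the Ragulator, which place complex 1 on the lysosome, had a median difference of 0.022 over 8 members, with 5 above 0 and 3 below. Their values ran from -0.11 ± 0.14 for Lamtor3 to 0.11 ± 0.16 for Lamtor1, and all intervals were within 2-fold. Without Control female 1 and without Control female 2, Rraga was at 0.23 and -0.029 and Rragd at -0.20 and 0.17. The 3 subunits of GATOR1, which turns the Rag GTPases off, all had values below 0, as had 12688 of 21308 genes. Nprl2 differed by -0.056 ± 0.17 and Depdc5 by -0.069 ± 0.20. Dimmer Depdc5 probes gave -0.69 ± 0.90 and -0.19 ± 0.25. Nprl3 measured -1.48, -1.39, -1.77 and -1.41 on the Western arrays, against -1.26, -0.95, -1.57 and -1.64 on the control arrays. The female control arrays were the highest and the male arrays overlapped, for a difference of -0.16 ± 0.16. It was -0.24 without Control female 1 and -0.081 without Control female 2. Depdc5 was at -0.20 and 0.065 with the same arrays left out.

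The transporters include Slc7a5 (Lat1), the light chain that carries leucine, its heavy chain Slc3a2, and Slc38a9, the lysosomal arginine sensor. Slc3a2 differed by -0.20 ± 0.26 and Slc38a9 by -0.13 ± 0.21. Dimmer Slc38a9 probes gave -0.56 ± 0.51 and -0.50 ± 0.47. Slc7a5 had a pair of probes with the same accession that did not give the same picture. The brighter probe, used in the fit, measured -3.13, -2.94, -2.24 and -2.63 on the Western arrays, against -2.55, -3.38, -2.60 and -2.21 on the control arrays. The diets overlapped, with a difference of -0.053 ± 0.24, which was 0.16 without Control female 1 and -0.26 without Control female 2. The dimmer probe measured -3.24, -3.61, -3.11 and -3.34 on the Western arrays, against -2.61, -2.74, -3.01 and -2.90 on the control arrays. Here every Western array lay below every control array (2.32% of the 25738 probes did so). Of all probes, 0.664% were higher and 3.57% lower at an unadjusted p under 0.05. The difference was -0.51 ± 0.16 (interval -0.90 to -0.13), with an unadjusted p of 0.0174 and an adjusted p of 0.989 over all probes by limma. It was -0.75 ± 0.22 in females, which rests on the Control female arrays, and -0.27 ± 0.22 in males. It kept to between -0.60 and -0.42 when any 1 array was left out, and it was -0.37 within slide 1 and -0.88 within slide 3. These values come from the same arrays and are not separate support. This probe was singled out after its values were seen, and which of the probes reports the transcript was not tested.

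**Figure D3:**
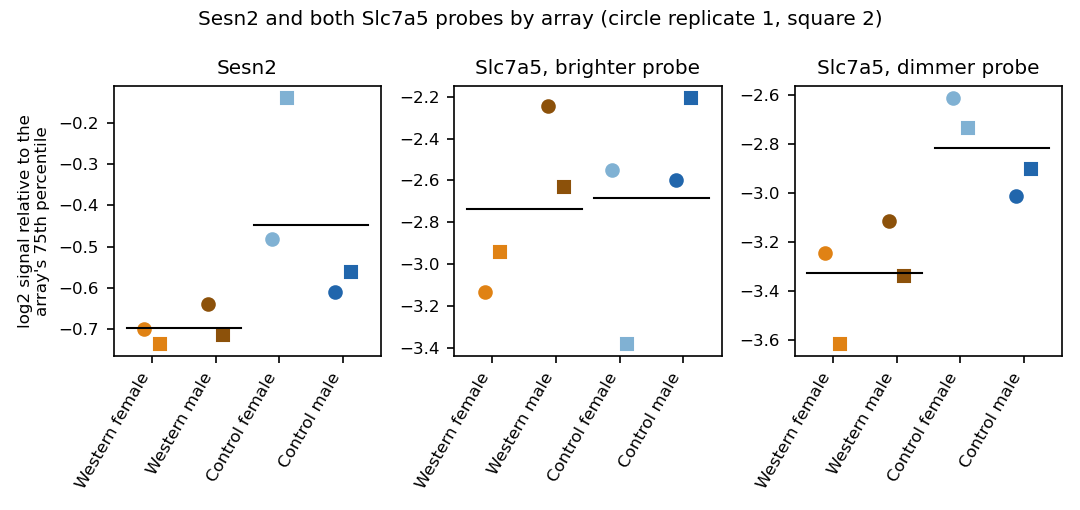
Log2 signal relative to the 75th percentile of each array for Sesn2 and both Slc7a5 probes, on the 2 arrays of each group, with lines at the diet means over 4 arrays. For Sesn2 and the dimmer Slc7a5 probe all Western arrays lie below all control arrays, and for the brighter Slc7a5 probe they do not.

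On the catabolic side, Ulk1, the kinase that starts autophagy, differed by 0.043 ± 0.16, with 0.14 without Control female 1 and -0.057 without Control female 2. Tfeb measured -0.98, -1.35, -1.43 and -1.29 on the Western arrays, against -0.76, -0.81, -1.74 and -0.82 on the control arrays. Control male 1 was the lowest of all arrays and the other 3 control arrays the highest. The difference was -0.23 ± 0.24, with -0.22 without Control female 1 and -0.24 without Control female 2. Without Control male 1, left out because it was the lowest array, it was -0.46.

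Slides could be compared within slide 1, which held all 4 groups, and within slide 3, which held both diets in females alone. Mtor differed between the diets by -0.16 within slide 1 and 0.21 within slide 3, Rictor by -0.029 and 0.42, Tfeb by 0.045 and -0.54, and Sesn3 by 0.18 and -0.51, so each had opposite signs on the 2 slides. Rptor (0.13 and 0.024), Rheb (0.068 and 0.10), Tsc1 (0.18 and 0.021) and Nprl3 (-0.21 and -0.44) had the same sign on both. These values rest on 4 arrays and 2 arrays and were not tested. Rptor, Rheb, Tsc1 and Nprl3 are among the members with the smallest p over the same arrays, so the shared sign is not separate support. Slide 1 includes Control female 1, and slide 3 sets Western female 2 against Control female 2.

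The spread between arrays was small for most members. Their SD over the 8 arrays had a median of 0.214, against 0.329 for all genes measured on every array. The SD was below 0.3 for 28 of 35 members (80%) and for 45.1% of all genes. All genes here include those well above background on as few as 2 arrays, while 34 of the members were so on all 8. The part of brightness in this contrast was not tested. After Eif4e the least variable members were Lamtor3 (SD 0.103), Ulk1 (0.143) and Mtor (0.159). At the other end stood Tsc2 (1.34), Ddit4 (0.771) and Eif4ebp2 (0.688). The arrays that most often held a member's highest or lowest value were Control male 1 and Control male 2, with 13 members each, and Control female 2, with 12. The shares were 37.1% of members against 28.4% of all genes on Control male 1, 37.1% against 22.5% on Control male 2 and 34.3% against 41.2% on Control female 2.

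**Figure D4:**
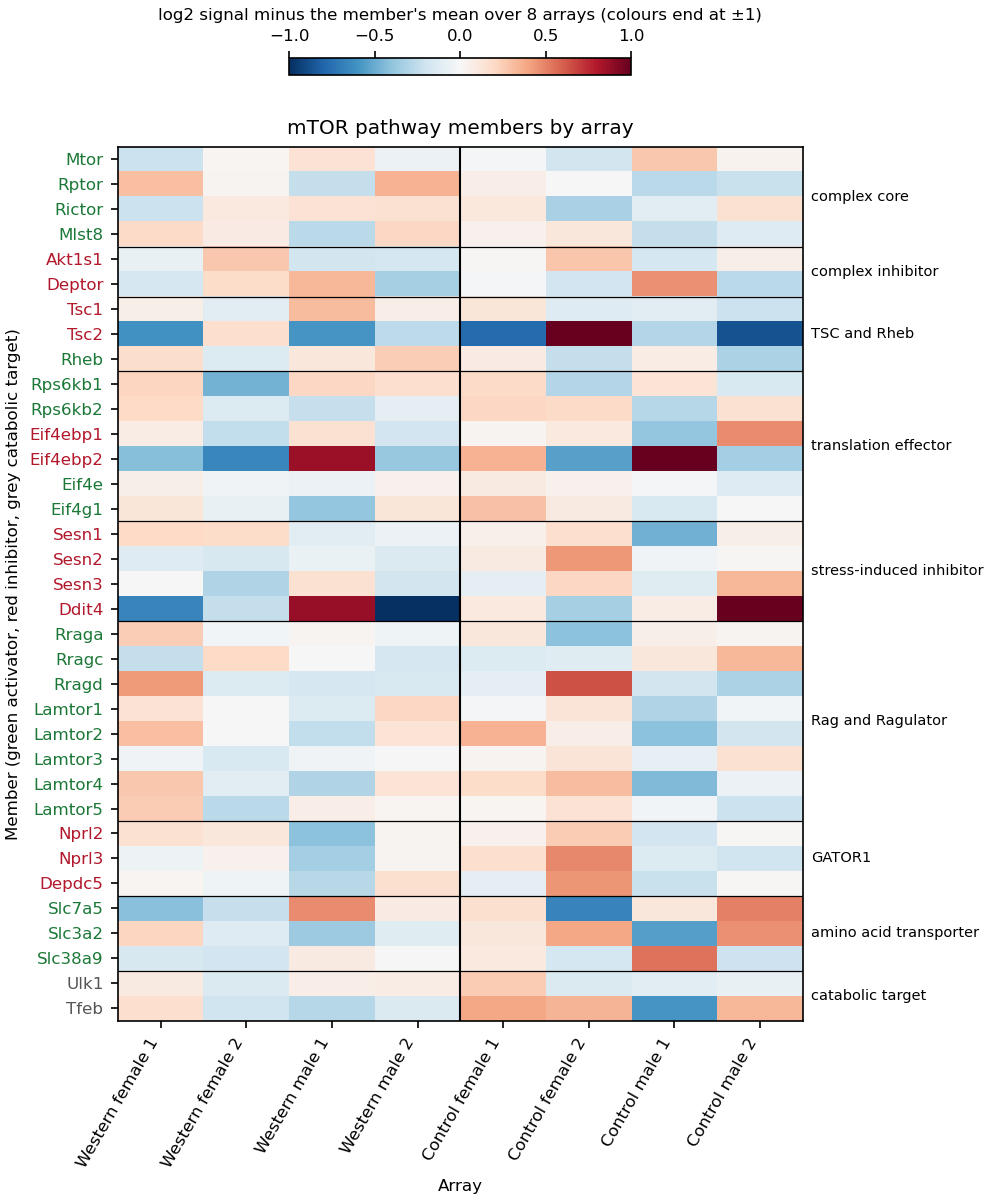
Log2 signal of each member minus its mean over the 8 arrays (colour), with members down the page by role and arrays across, the 4 Western arrays on the left. Strong colours occur mainly for Tsc2, Ddit4 and Eif4ebp2, and no block of colour follows the line between the diets.

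The diet effect was then read in each sex. In females 0 members passed the adjusted threshold by limma (0% of all genes) and 0 had an unadjusted p under 0.05, where 0.596% of all genes were higher and 4.5% lower. The members' median was -0.081, with 25 of 35 below 0, and that of all genes -0.109, with 13464 of 21308 below 0. Groups without overlap occurred for 1 member with higher values on the Western diet (Sesn1, 9.58% of all genes) and for 4 with lower values (Sesn2, Lamtor3, Nprl3 and Tfeb, 21.8% of all genes). Sesn2 differed by -0.41 ± 0.20 in females (unadjusted p = 0.093, adjusted p = 0.954 by limma), by -0.58 without Control female 1 and by -0.24 without Control female 2. Nprl3 differed by -0.33 ± 0.23, with -0.48 without Control female 1 and -0.17 without Control female 2. Tfeb differed by -0.38 ± 0.34, with -0.35 and -0.40 when these arrays were left out. Tsc2 differed by -1.44 ± 1.2, by -3.43 without Control female 1 and by 0.55 without Control female 2. The value of -3.43 rests on Control female 2 as the only array of its group, whose spread was then not measured.

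In males 0 members passed (0% of all genes), and 0 had an unadjusted p under 0.05, where 0.582% of all genes were higher and 0.718% lower. The median was -0.033, with 17 members above 0, and that of all genes -0.0093, with 10370 of 21308 above 0. In this sex 6 members had higher Western values without overlap (Tsc1, Rheb, Rps6kb1, Rragd, Lamtor5 and Ulk1, against 12.1% of all genes) and 3 had lower ones (Sesn2, Rraga and Rragc, against 12.9%). Tsc1 differed by 0.36 ± 0.21 (unadjusted p = 0.143, adjusted p = 0.9997 by limma). Rheb differed by 0.30 ± 0.25 and Rptor by 0.30 ± 0.26. Rragc, a Rag GTPase, measured 1.81 and 1.64 on the Western male arrays, against 1.92 and 2.14 on the Control male arrays, a difference of -0.31 ± 0.23.

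Whether the diet effects differed between the sexes was tested as their difference, females minus males. No member passed by limma (0% of all genes), and 0 had an unadjusted p under 0.05 (0.46% of all genes higher, 1.16% lower). The 4 members with the smallest p were Rragc (0.42 ± 0.33), Tsc1 (-0.38 ± 0.30), Sesn2 (-0.32 ± 0.29) and Nprl3 (-0.34 ± 0.32). Each of these rests on all 4 groups of 2 arrays, and without Control female 1 they were 0.41, -0.25, -0.49 and -0.50. Without Control female 2 they were 0.42, -0.50, -0.15 and -0.18. Tsc2 was at -1.596 with all arrays, at -3.59 without Control female 1, where Control female 2 is alone in its group, and at 0.395 without Control female 2.

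The study's other comparison set females against males. No member passed by limma (0% of all genes), and 0 had an unadjusted p under 0.05, where 2.66% of all genes were higher and 1.19% lower in females. The members' median was 0.078 and that of all genes 0.075. The smallest p belonged to the brighter Slc7a5 probe, which averaged -3.002 ± 0.35 in females and -2.42 ± 0.23 in males (SD, n = 4 each). Its difference was -0.58 ± 0.24 (unadjusted p = 0.0533, adjusted p = 0.906 by limma), -0.79 without Control female 1 and -0.37 without Control female 2. The fit without Control female 1 leaves Control female 2 alone in its group, so the spread of that group was not measured there. The dimmer probe differed by 0.039 between the sexes. Tsc2 differed by 1.01 ± 0.85 with all arrays, by 2.002 without Control female 1 and by 0.010 without Control female 2.

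The next 3 members by p were Nprl3, Lamtor2 and Rragd. Of the 8 Rag and Ragulator members 5 were above 0 and 3 below between the sexes, as were 13272 and 8036 of all genes. Nprl3 averaged -1.27 ± 0.23 in females and -1.60 ± 0.15 in males (difference 0.33 ± 0.16, 0.40 without Control female 1 and 0.25 without Control female 2). Lamtor2, a Ragulator subunit, measured 4.58, 4.28, 4.64 and 4.35 on Western female 1, Western female 2, Control female 1 and Control female 2, against 4.04, 4.42, 3.88 and 4.10 on Western male 1, Western male 2, Control male 1 and Control male 2. Western male 2 alone among the male arrays reached the female values, and the difference was 0.35 ± 0.18, 0.28 without Control female 1 and 0.42 without Control female 2. Rragd, a Rag GTPase, measured -3.95, -4.52, -4.48 and -3.74 on the female arrays in that order, against -4.55, -4.53, -4.56 and -4.70 on the male arrays. The male arrays lay close together and below all female arrays, of which Western female 2 came closest, and the difference was 0.41 ± 0.23. Rragd and Nprl2 were the 2 members of 35 with higher female values without overlap (1.96% of all genes), and 0 had lower ones (1.03%). Rragd differed by 0.597 without Control female 1 and by 0.23 without Control female 2, its highest array. Within slide 1, and within slide 3 in control mice alone, the differences had one sign for each gene. They were 0.30 and 0.69 for Nprl3, 0.65 and 0.25 for Lamtor2, 0.34 and 0.96 for Rragd, and -0.42 and -1.18 for the brighter Slc7a5 probe. These arrays are among those by which the genes were picked, so the shared sign is not separate support. Slide 1 includes Control female 1, slide 3 sets Control female 2 against Control male 2, and the values were not tested.

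**Figure D5:**
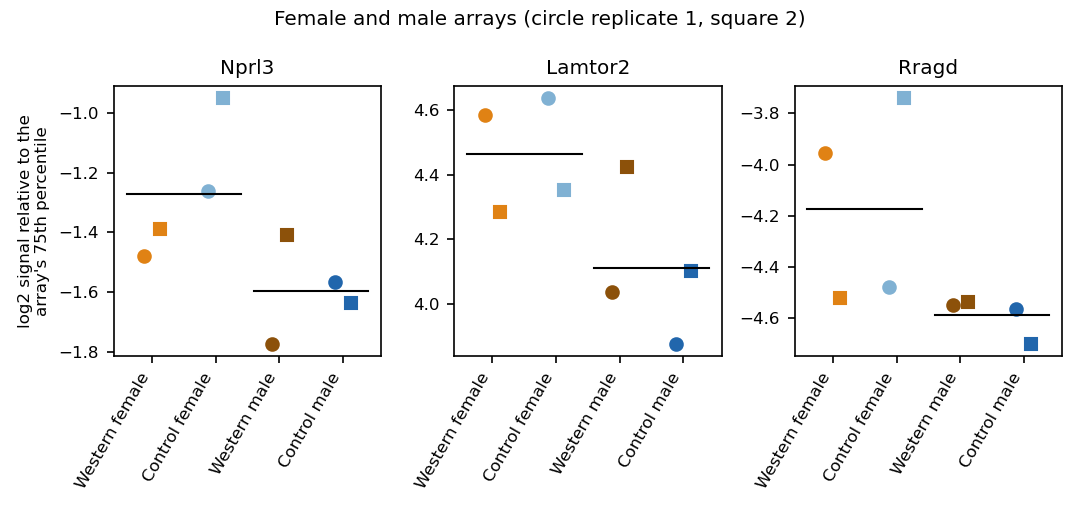
Log2 signal relative to the 75th percentile of each array for Nprl3, Lamtor2 and Rragd, with the female groups left of the male groups, 2 arrays per group, and lines at the means of 4 arrays per sex. Female values are higher on average, with overlap for Nprl3 and Lamtor2. The library labelled Control female 1 carried Y-linked transcripts.

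Neighbouring parts of the pathway were read from 3 lists chosen with earlier results of these data known. Of 52 further mTOR pathway genes 48 were tested, with a median diet difference of -0.014, 21 above 0 and 27 below, and 0 past the adjusted threshold or an unadjusted p of 0.05. Seh1l, a GATOR2 subunit, measured 0.87, 0.89, 0.88 and 0.89 on the Western arrays, against 0.46, 0.73, 0.62 and 0.75 on the control arrays. The Western arrays were nearly equal and all higher (0.864% of all genes were higher without overlap). The difference of 0.24 ± 0.14 had an unadjusted p of 0.136 by limma. Rb1cc1, the scaffold of the Ulk1 complex, differed by 0.25 ± 0.15. Pdcd4, a translation inhibitor that S6 kinase marks for degradation, differed by -0.40 ± 0.31, and Eef2k, the kinase that slows elongation, by -0.37 ± 0.29.

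Atf4 is a stress-induced factor that complex 1 also activates, and its targets include amino acid transporters and synthesis enzymes. Of 33 such genes 30 were tested, with a median of -0.094, 10 above 0 and 20 below, and 0 at an unadjusted p under 0.05. Atf4 itself differed by 0.27 ± 0.22, with Western female 2 left out as an outlier spot. Ppp1r15a, the phosphatase subunit that ends the stress response, differed by 0.32 ± 0.22. Aldh1l2, a mitochondrial folate enzyme, differed by -0.36 ± 0.23 and the lipoprotein receptor Vldlr by -0.34 ± 0.23.

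Lysosomal and autophagy genes of the Tfeb programme are held low when complex 1 keeps Tfeb out of the nucleus. Of 49 genes 46 were tested, with a median of -0.0015, 22 above 0 and 24 below, and 0 past the adjusted threshold. Lamp2, a lysosomal membrane protein, measured 3.597, 3.36, 3.78 and 3.996 on the Western arrays, against 3.37, 3.07, 3.24 and 2.87 on the control arrays. Western female 2 and Control female 1 were the single pair that crossed, so the diets did not overlap without Control female 1 (2.18% of all genes were then higher without overlap). The difference was 0.62 without that array and 0.47 without Control female 2. With all arrays the difference of 0.54 ± 0.17 (1.46-fold, unadjusted p = 0.0193, adjusted p = 0.995 by limma) made Lamp2 the only gene of the 3 lists with an unadjusted p under 0.05. At that threshold 0.648% of all genes were higher and 3.62% lower. Ctsl, a lysosomal protease, measured 3.59, 3.38, 3.17 and 3.51 on the Western arrays, against 2.99, 2.98, 3.13 and 3.102 on the control arrays, with no overlap and a difference of 0.36 ± 0.15. Western male 1 (3.17) and Control male 1 (3.13) were close together, and 0.864% of all genes were higher without overlap. Ppargc1a, a coactivator of mitochondrial genes, differed by -0.92 ± 0.40 and the sialidase Neu1 by -0.28 ± 0.19.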

How the data were processed

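Per the file headers, the arrays (Agilent design 026655) were read with Feature Extraction 10.7.3.1. The processed signal deposited for each spot is a linear, background-subtracted intensity. The 1377 control spots and 94 to 216 outlier spots per array were left out, and 399 repeated probes were averaged. Signals were taken to log2 and set relative to each array's 75th percentile, which lay between 486 and 902. Probes were named by accession through a RefSeq table (GRCm38.p6). A probe was kept if 2 or more arrays showed it well above background (25738 probes), and the brightest was taken per gene (21308). The members had 49 kept probes, and 10 members had several. limma 3.58.1 in R 4.3.3 fitted 4 group means over 8 arrays (4 residual and 2.01 prior degrees of freedom), with Benjamini-Hochberg adjustment over all genes, a threshold of 0.05 and 95% intervals. The fit was tested on simulated data.

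The array number limits the precision. The 4 replicate 1 arrays shared slide 1, Western male 2 was alone on slide 2, and the other 3 arrays were on slide 3, the only slide of scan day 2. Replicate numbers were not used as pairs in the main fit. Correlations of same-numbered deviations ran from -0.12 (Control female with Control male) to 0.35 (Western male with Control male), which does not settle whether samples were paired. The members and lists were chosen with earlier results of these data known. Values per array were given for Mtor, Rptor, Rictor, Ddit4, Sesn2, Slc7a5 and the members with the smallest p in each comparison (8 for diet, 4 in each other), and from each list the 2 genes with the smallest p in each direction were named. Eif4ebp2 was added after its values were seen. Background correction by normexp was run on median spot signals, because the files used here hold no mean spot signals. Other alternatives were quantile and median scaling, other probe filters, probe averaging, blocks for slide, scan day and replicate, and leaving out each array.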

Additional observations from a re-analysis of the deposited data

Results flagged for a closer look

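Among 70 groups of 4 arrays (35 members on each diet), 8 had an array far from the other 3 by Dixon's test, where chance alone gives about 1 in 20. Each group of 4 pools the sexes, and no share of all genes is given for this test. Of all genes, 41.2% had their highest or lowest value on Control female 2 and 28.8% on Western female 2. The shares were 28.4% on Control male 1 and 19.2% on Western female 1, so the flags are not read as particular to the members. On the Western diet these were Rictor at -3.05 and Rragd at -3.95, both on Western female 1, and Rps6kb1 at 2.004 and Ulk1 at 1.92, both on Western female 2. On the control diet they were Tsc2 at -1.13 and Rraga at 1.23 on Control female 2, and Rps6kb2 at -2.41 and Tfeb at -1.74 on Control male 1. The log2 signals are relative to the 75th percentile of the array.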

How the results depend on the processing

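No member was called under any alternative run. The smallest adjusted p was that of Tsc2 in females without Control female 1, a fit that leaves Control female 2 alone in its group. Of 530 recomputed values for 27 member results, 35 turned sign, in 17 results. Median scaling, which shifts all genes upward on the Western diet, gave 65, 32, 82, 20 and 83 genes called (diet, males, females, difference between the sexes, sex), against 0 each, and medians of 0.38 for activators and 0.27 for inhibitors. It turned Mtor to 0.32, Sesn2 to 0.12, Slc7a5 to 0.32, Nprl3 to 0.21, Tfeb to 0.14 and Sesn3 to 0.21, in females Sesn2 to 0.18, Nprl3 to 0.26 and Tfeb to 0.22, and the difference between the sexes to 0.064 for Tsc1, 0.13 for Sesn2 and 0.10 for Nprl3. Quantile normalization turned Mtor to 0.052, Slc7a5 to 0.41 and Rragd between the sexes to -0.065, and normexp turned Rictor to -0.013. With slide as a block Ddit4 was 0.034, Slc7a5 0.024 and Rptor in males -0.038. Within slide 1 Rictor was -0.029, Ddit4 0.021, Tfeb 0.045, Sesn3 0.18 and Tsc2 in females 0.16, and within slide 3 Mtor was 0.21, Ddit4 0.093 and Slc7a5 0.44. In males alone Nprl3 was 0.0105, an alternative chosen after seeing the data, as was normexp on median signals. Leaving out 1 array gave 0 to 1 genes called for diet (1 without Control female 2), 0 to 2 in females (2 without Control female 2), 0 to 2 for the difference between the sexes (2 without Control female 1, 1 without Control female 2) and 0 to 3 for sex (3 without Control female 1). It moved Mtor between -0.11 and 0.0066, Slc7a5 between -0.26 and 0.16, Rictor between -0.015 and 0.20 and Tsc2 in females between -3.43 and 0.55. The replicate block called 0 genes and changed no call. The cause of these shifts was not tested, except that median scaling adds the same amount to every gene of an array. With 2 arrays per group, the data do not exclude differences that lie inside the printed intervals. The smallest difference that the fit could detect was not computed.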
